A study of Mus musculus with 18 samples.

Results

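The 10 genes described here encode enzymes that make polyamines (Odc1, Amd1, Srm and Sms), pyrimidine nucleotides (Cad and Umps) and purine nucleotides (Ppat, Gart, Paics and Impdh2). They are 10 of the 46603 genes in the deposited tables of 18 mouse lung cultures, and all 10 were measured in every culture, with 410 to 15154 expected counts per gene and sample. The genes were chosen because Cad and Srm led a rise of MYC target genes in tumoroids grown after transplantation. That rise is therefore how the genes were picked, and every value that sets tumoroids against organoids is a description of these 10 genes and not a test of them. The rule that chose them did not use the comparisons between lineages or between viruses, although earlier results of these data were known.

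Polyamines are small positively charged molecules that bind nucleic acids and are needed for growth and for the maturation of the translation factor eIF5A. Ornithine is turned into putrescine, and aminopropyl groups made from S-adenosylmethionine are then added to give spermidine and spermine. Nucleotides are either built from small precursors (de novo synthesis) or recovered from existing bases and nucleosides (salvage), and dividing cells draw on both routes for RNA and DNA. Several of these enzymes are classical targets of the transcription factor MYC, which binds the DNA motif CACGTG together with its partner MAX.

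All sorted epithelial cells carried 1 Col1a1 locus in which a lox-stop-lox cassette and a CAG promoter stand in front of a human EGFR gene with the T790M and L858R mutations. Cells sorted from donor mice were infected with Ad-Cre, an adenovirus that delivers Cre and removes the stop, or with the control Ad-GFP, and grew as organoids in Matrigel beside lung mesenchymal support cells. The tracheal cells were NGFR-negative (club) or NGFR-positive (basal). The distal cells were Sca1-negative alveolar type 2 cells (AT2) or Sca1-positive bronchioalveolar stem cells (BASCs). Each of these populations gave 1 Ad-GFP and 1 Ad-Cre culture, and BASCs gave a further alveolar and a further bronchiolar Ad-Cre culture, which makes 10 organoid cultures. Ad-Cre organoid cells were instilled through the trachea of nude mice (Foxn1 Nu/Nu), and the tumors were grown in culture again as tumoroids, 3 of AT2 origin, 3 of mixed BASC origin and 1 of bronchiolar BASC origin. The last tumoroid came from an autochthonous tumor, which arose in the lung of a mouse given Ad-Cre (n = 1). The ages of the donors were not given in the sources used here.

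Organoid libraries held 27772660 to 97191624 expected counts in total, and tumoroid libraries 15327265 to 23355938. All organoid libraries were made by the TruSeq protocol for a HiSeq instrument and all tumoroid libraries by the BGI protocol for DNBSEQ, so platform and transplantation cannot be told apart. The summed level of 8 AT2 markers, in CPM (counts scaled to a common library size), was 45613 to 54239 in the AT2 organoids and 692 to 1012 in the tracheal organoids. Of the BASC cultures, the alveolar one had 49693 CPM of these markers and the other 3 had 1321 to 3268. The club and basal cultures were alike in their markers. Krt5, a basal cell keratin, was at 1866 to 2398 CPM in all 4, and the club cell gene Scgb1a1 was at no more than 4.42 CPM. Other club cell genes went the other way. Cyp2f2 and Scgb3a2, with mean log2 CPM of 10.7 and 8.74 over the organoids, were higher in tracheal than in AT2 organoids. Their log2 differences (AT2 minus tracheal) were −3.13 ± 0.54 and −5.82 ± 1.65 (SE). The 6 endothelial markers summed to no more than 9.56 CPM in any culture. The 10 fibroblast markers summed to 3175 to 10673 CPM in organoids and, in tumoroids from transplants, to 800 to 14185 CPM. They were highest in AT2 tumoroid 3 (14185 CPM) and, among mixed BASC tumoroids, in number 2 (7039 CPM). Mesenchymal support cells were present in the cultures, and in bulk RNA fewer cells of a type and less RNA per cell cannot be told apart.

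The RefSeq promoter windows (250 bases before to 50 after a transcription start, GRCm38.p6) were searched for CACGTG, which reads the same on both strands. Windows were given for 9 of the 10 genes, all except Srm. The motif was in the windows of 3 of these 9 genes, against 2187 of all 27025 genes with a window (8.09%). The 3 stretches are shown because they carry the motif named for MYC, with the motif in capitals and 12 bases on each side, read 5′ to 3′ on the strand of the gene.
Paics (chr5:76951087-76951116, plus strand, 203 bases before the start): cgcctcggaaagCACGTGgagggacctgct
Impdh2 (chr9:108560314-108560343, plus strand, 110 bases before the start): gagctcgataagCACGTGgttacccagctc
Sms (chrX:157492466-157492495, minus strand, 196 bases before the start): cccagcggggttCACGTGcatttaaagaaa
Distances are counted from the RefSeq start, and the GENCODE vM21 span of Impdh2 given below opens before it, so the Impdh2 stretch lies inside that span. The Paics stretch also lies inside the annotated span of Ppat, which runs the other way from a start that overlaps Paics by 272 bases. A match of letters is not a measured binding site. Between transplant tumoroids and the distal Ad-Cre organoids, the contrast that chose the genes, the fitted log2 differences of these 3 were 0.95 (Paics), 0.67 (Impdh2) and −0.23 (Sms), and nothing about the motif is read from them.

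Levels were compared between genes as TPM, RSEM's share of each library's transcripts, which is scaled by transcript length. Over the 10 organoid cultures, Paics had 130 TPM ± 14.6 (SD, n = 10), Odc1 124 ± 36.96 and Impdh2 93.8 ± 15.6. Amd1 (53.6 ± 13.3) and Sms (40.4 ± 10.0) followed, then Gart (27.1 ± 6.22) and Srm (25.6 ± 3.44), and Ppat (12.2 ± 1.51), Cad (11.8 ± 1.31) and Umps (9.52 ± 2.16) were lowest. Within these sets neighbours differed by less than the larger of their SDs, except Cad and Umps. In the 7 tumoroids from transplants the order was different. Paics led with 251 TPM ± 28.3 (SD, n = 7), Impdh2 had 129 ± 37.2 and Odc1 85.9 ± 32.6. Cad, next to last in organoids, stood with 63.7 ± 27.7 TPM among Srm (60.4 ± 9.03) and Amd1 (54.8 ± 19.6), within their SDs. The TPM of Cad also depends on the transcript length that RSEM estimated in each library. In CPM, without that scaling, Cad went from 34.2 ± 4.9 in the 10 organoids to 116 ± 42.9 in the 7 tumoroids, a smaller rise than in TPM. Its place among the genes in tumoroids is therefore uncertain. Umps remained the lowest, at 13.2 ± 4.69 TPM.

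**Figure D1:**
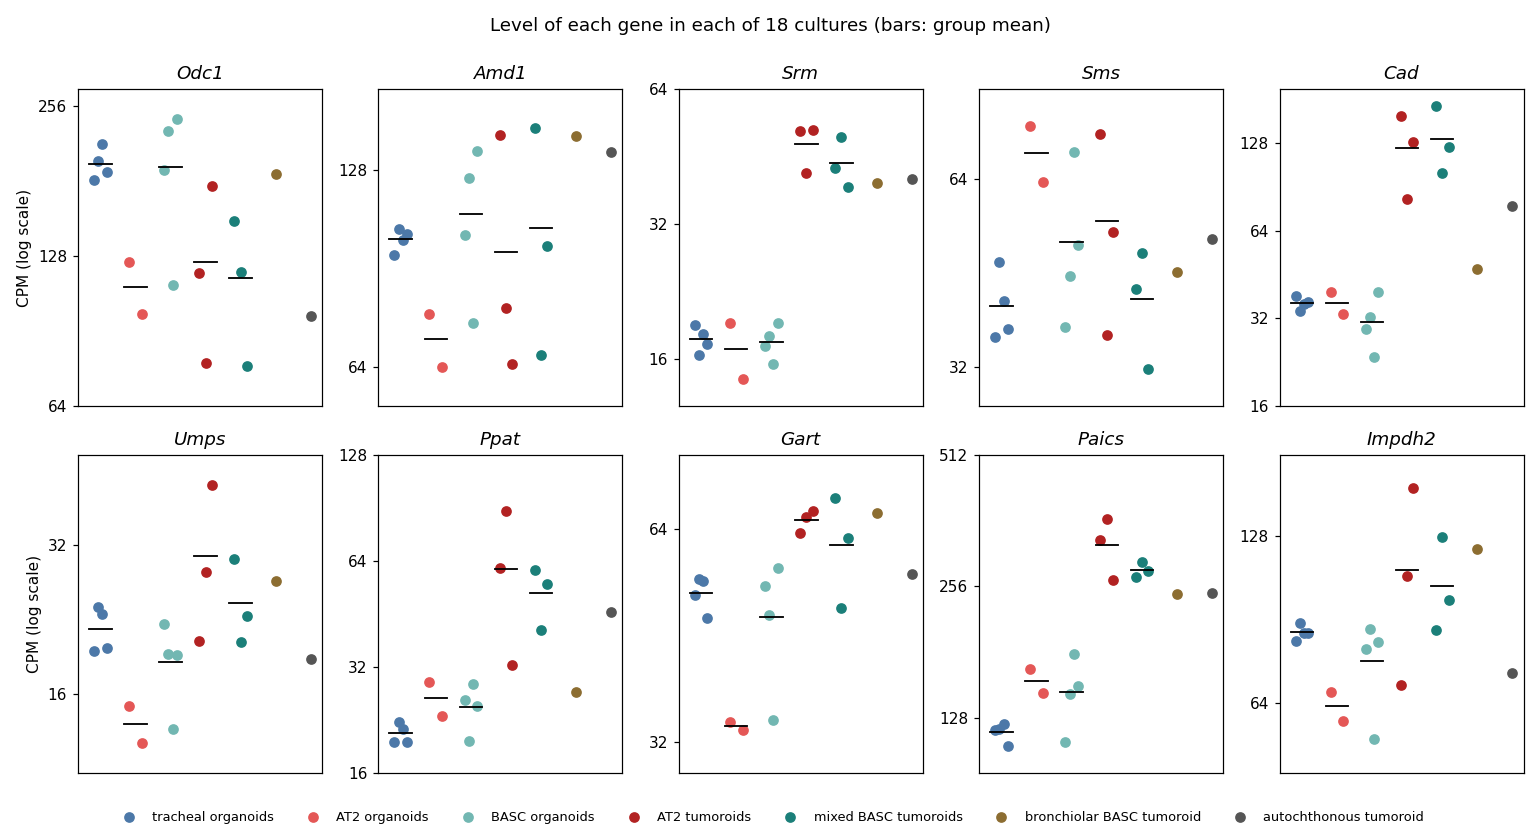
Level of each of the 10 genes in every culture, in CPM on a log axis, with a point for each culture and a bar for the mean of each group. All 8 tumoroids lie above all 10 organoids for Srm, Cad and Paics, while the tumoroids and organoids overlap for Odc1, Amd1 and Sms.

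The tumoroids were set against the distal Ad-Cre organoids from which such transplants were made, to ask what differed after growth in the lung. Srm, Cad, Umps and Paics were higher in all 7 tumoroids than in any of these organoids, and Ppat, Gart and Impdh2 were higher in 6, 6 and 5 of the 7, whereas the other polyamine enzymes Odc1, Amd1 and Sms were not. Fitted differences for 8 of the 10 genes were above 0 and their median was 0.74 (log2), beside −0.0016 over all genes tested. In the edgeR fit 6 of the 10 passed the threshold upward (adjusted p below 0.05), where 10.8% of 16139 genes did, and none passed it downward, where 8.57% did. Every tumoroid lay above every distal Ad-Cre organoid for 4 of the 10, where 7.85% of genes did. Because this contrast chose the genes, nothing is read from these counts.

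Srm, which with Cad was named in the choice of the genes, is spermidine synthase (chromosome 4, 148591503 to 148594993, plus strand, GRCm38). It was at 14.4 CPM in AT2, 17.9 in mixed BASC, 15.5 in alveolar BASC and 19.2 in bronchiolar BASC Ad-Cre organoids. Its level was 51.4, 41.4 and 51.8 CPM in the AT2 tumoroids, 42.5, 49.9 and 38.6 in the mixed BASC tumoroids and 39.4 in the bronchiolar tumoroid. The lowest tumoroid was above the highest of all 10 organoids (19.2 CPM), and the fitted log2 difference was 1.47 ± 0.14 (SE).

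Odc1 makes putrescine and is a rate-limiting enzyme of the pathway (chromosome 12, 17544794 to 17551505, plus strand). With Ad-Cre it was at 97.9 CPM in AT2 organoids and at 228, 112 and 242 CPM in the mixed, alveolar and bronchiolar BASC organoids. The 7 tumoroids ran from 77.3 to 187 CPM with a median of 119, inside or below the organoid range (log2 difference −0.34 ± 0.32).
Amd1 decarboxylates S-adenosylmethionine to supply the aminopropyl groups (chromosome 10, 40287458 to 40302186, minus strand). It spanned 64.2 to 137 CPM in these 4 organoids and 64.7 to 148 CPM in the tumoroids, with a log2 difference of 0.13 ± 0.30. Amd1 has a near-identical copy, Amd2, and RSEM divided their reads by estimate, with Amd2 given 3.71% to 13.5% of their joint counts, so the level of Amd1 is uncertain to that extent.
Sms (spermine synthase, chromosome X, 157443855 to 157492287, minus strand) was at 44.7 to 70.7 CPM in the 4 organoids and at 31.8 to 75.7 CPM in the tumoroids, with only AT2 tumoroid 1 above all of those organoids. Its log2 difference was −0.23 ± 0.23. Srm and Sms catalyse successive steps, and of these only Srm was higher in every tumoroid.

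Cad is the fused enzyme that carries out the opening steps of pyrimidine synthesis (chromosome 5, 31054780 to 31078479, plus strand). It was at 33.0, 32.3, 23.7 and 39.3 CPM in the AT2, mixed, alveolar and bronchiolar BASC Ad-Cre organoids. The AT2 tumoroids had 158, 81.8 and 128 CPM, the mixed BASC tumoroids 170, 101 and 124 CPM, and the bronchiolar tumoroid 47.3 CPM. Its difference was the largest of the 10 genes (1.90 ± 0.33), but it was also the most uneven, with the bronchiolar tumoroid just above the organoids and the other 6 well above. From mean TPM the log2 difference of Cad was 2.32, above the 1.90 from counts, and that of Srm was 1.29, below its 1.47 from counts. Whether the transcript length estimated for Cad differed between the stages or platforms was not tested.
Umps adds ribose phosphate to the finished ring and yields UMP (chromosome 16, 33954782 to 33967038, minus strand). It was at 12.7 to 19.2 CPM in the organoids and at 20.4 to 42.4 CPM in the tumoroids (0.80 ± 0.23), with AT2 tumoroid 3 the highest. The gap was narrow, and 2 of the tracheal cultures, at 23.2 and 24.0 CPM, were above 3 of the 7 tumoroids. Dhodh, the mitochondrial enzyme that acts between Cad and Umps and was not used to choose the genes, was at 7.32 to 8.83 CPM in the 4 organoids and 11.999 to 19.0 CPM in the 7 tumoroids. Its log2 difference of 0.93 ± 0.19 passed the edgeR test over all genes (adjusted p = 0.00763), although with population as a block the adjusted p was 0.0515.

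Ppat makes the committed step of purine synthesis (chromosome 5, 76913249 to 76951578, minus strand). It was at 23.2, 19.6, 28.5 and 24.7 CPM in the AT2, mixed, alveolar and bronchiolar BASC Ad-Cre organoids. The AT2 tumoroids had 61.1, 88.5 and 32.3 CPM and the mixed BASC tumoroids 60.2, 40.6 and 55.1 CPM, while the bronchiolar tumoroid, at 27.1 CPM, fell within the organoid range. The log2 difference was 1.16 ± 0.31.
Paics catalyses later steps of the same route (chromosome 5, 76951307 to 76967509, plus strand) and was the steadiest purine gene. It ran from 145 to 179 CPM in the 4 organoids and from 245 to 364 CPM in the 7 tumoroids, with no overlap and a log2 difference of 0.95 ± 0.15. The starts of Ppat and Paics overlap and the sources do not state that strand was used in counting, so reads from the shared 272 bases could be given to either gene.
Gart, which carries out several of the steps between Ppat and Paics (chromosome 16, 91621186 to 91646952, minus strand), was at 33.3 to 56.3 CPM in the organoids. It was at 62.1 to 70.8 CPM in 6 tumoroids and at 49.4 CPM in mixed BASC tumoroid 2 (0.62 ± 0.16). An antisense gene overlaps 2676 bases of Gart and another overlaps 800 bases of Umps, with the same limit.
Impdh2 directs the purine product toward guanine nucleotides (chromosome 9, 108560286 to 108565584, plus strand). It was at 55.1 to 86.8 CPM in the organoids and 69.0 to 156 CPM in the tumoroids (0.67 ± 0.22). Its highest tumoroids were AT2 tumoroid 3 (156 CPM) and mixed BASC tumoroid 2 (127 CPM), which also had the highest fibroblast markers. The same 2 tumoroids had the highest summed levels of 13 cycling genes (1371 and 1250 CPM). Without these 2 tumoroids, a setting added after the values were seen, the log2 difference of Impdh2 was 0.49. A fall was built in, because the tumoroids left out were its highest, and nothing about fibroblasts or cycling is read from it. The differences of Srm, Cad and Paics in that setting were 1.39, 1.91 and 0.98.

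The tumoroids also had more transcript from cycling genes, and the part of this in the enzyme levels was not tested. The summed level of 13 cycling genes was 283 to 511 CPM in the distal Ad-Cre organoids and 742 to 1371 CPM in the 7 tumoroids, and all 13 genes rose (log2 differences 0.99 to 2.35). The bronchiolar tumoroid, with the lowest Cad and Ppat, had the lowest sum of the 7 (742 CPM). Values in the other tumoroids went both ways. Mixed BASC tumoroid 1, with the highest Cad, had the next-lowest sum (939 CPM). AT2 tumoroid 3, with the highest sum (1371 CPM), had the next-lowest Ppat. The same tumoroid had the highest Srm (51.8 CPM), Umps (42.4 CPM) and Impdh2 (156 CPM) of the 7. When each population was kept as a block, the differences of Srm, Paics and Cad were 1.43, 0.99 and 1.57, and 2 of the 10 enzymes passed the threshold in place of 6, counts from which again nothing is read. The blocked fit can compare stages only in AT2, mixed BASC and bronchiolar BASC, each with 1 organoid culture.

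**Figure D2:**
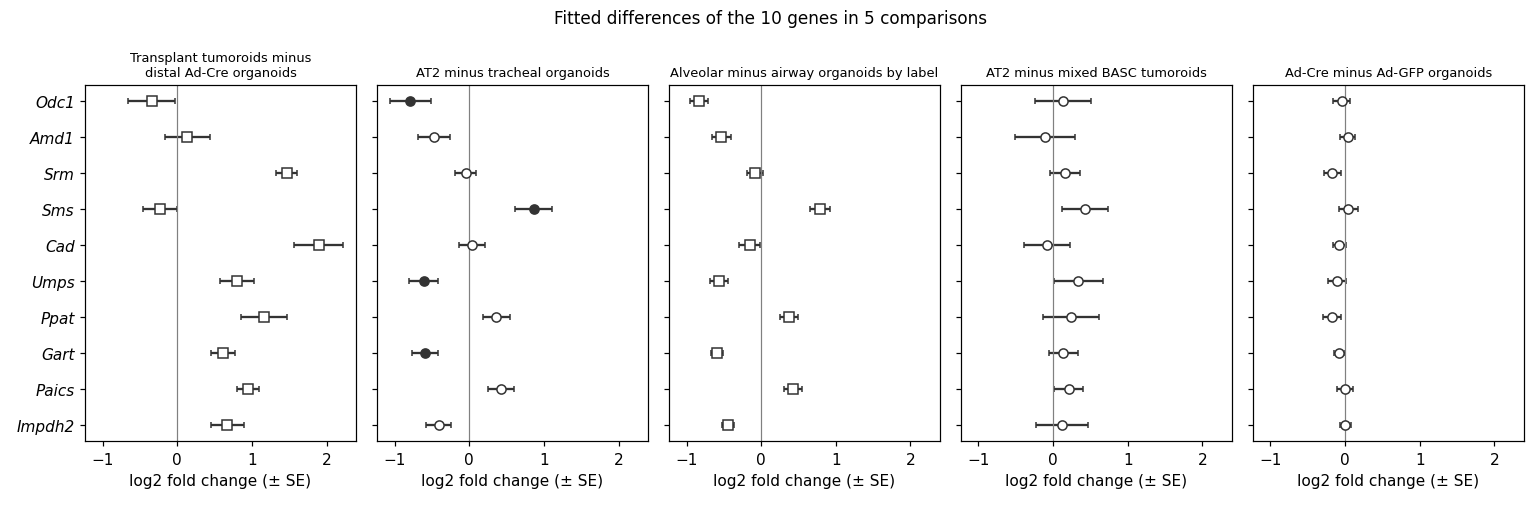
Fitted log2 fold change of each gene (x axis) with its SE in 5 comparisons, with filled circles for adjusted p below 0.05 and squares for the comparison that chose the genes and for the grouping by label added after values were seen, neither of which is read as a test. Srm and Cad differ most in the first panel (1.47 and 1.90), and in the 4 other comparisons plotted both lie within 0.20 of 0.

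In the autochthonous tumoroid, which never passed through culture before it became a tumor, Srm was at 40.3 CPM, Cad at 77.4, Ppat at 45.8 and Paics at 246, all above the 10 organoids. Gart (55.2 CPM), Umps (18.8 CPM), Impdh2 (72.5 CPM), Amd1 (136 CPM) and Sms (51.3 CPM) were within the range of the organoids, and Odc1 (97.2 CPM) was next to the lowest organoid (97.9 CPM). This is a single culture and carries no replicate error.

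The lineages were then compared among the 10 organoid cultures, which share a platform. The stated rule for choosing the genes did not use this comparison, although earlier results of these data were known. AT2 organoids had less Odc1, Umps and Gart and more Sms than tracheal organoids, while Srm and Cad were near the same level. In 1 edgeR fit over tracheal (n = 4), AT2 (n = 2) and BASC (n = 4) cultures with the virus as a term, Sms was called higher in AT2, where 21.8% of 19349 genes were. Odc1, Umps and Gart were called lower, where 20.7% of genes were. The 4 called of 10 are close to the share over all genes, and the median difference of the 10 was −0.23 beside −0.066 over all genes. These calls rest on 2 AT2 cultures from the same population. No enzyme was called without either AT2 culture, the club Ad-Cre culture or either basal culture, 2 were called without the club Ad-GFP or the mixed BASC Ad-Cre culture, and 8 without alveolar BASC.

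Odc1 was at 125 and 97.9 CPM in the AT2 cultures and at 182, 199, 215 and 189 CPM in the club and basal cultures, without overlap (log2 difference −0.79 ± 0.27, adjusted p = 0.0483). Sms went the other way, with 77.7 and 63.4 CPM in AT2 and 35.7 to 47.1 CPM in the trachea (0.86 ± 0.25, adjusted p = 0.0267). Odc1 and Sms, at the ends of the polyamine chain, thus differed in opposite directions between these cultures. As said above, calls among the enzymes were near the share over all genes, and nothing about the pathway is read from them.
Gart was at 34.1 and 33.3 CPM in AT2 and at 47.9 to 54.4 CPM in the trachea (−0.59 ± 0.17, adjusted p = 0.0284). Umps was at 15.1 and 12.7 CPM against 19.5 to 24.0 CPM (−0.61 ± 0.19, adjusted p = 0.0348).
Amd1 (−0.47 ± 0.21), Impdh2 (−0.41 ± 0.16), Paics (0.43 ± 0.17) and Ppat (0.36 ± 0.18) did not pass, with adjusted p from 0.074 to 0.128. Srm (−0.05 ± 0.14) and Cad (0.04 ± 0.18) had the smallest differences, with Srm at 14.4 and 19.2 CPM in AT2 and 16.3 to 19.0 CPM in the trachea.

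Other cell content moved with this comparison, and its part in the enzyme differences was not tested. The 10 fibroblast markers summed to 10542 and 10673 CPM in the AT2 cultures and to 3572 to 4123 CPM in the tracheal cultures. The cycling genes summed to 283 and 351 CPM in AT2 and to 468 to 613 CPM in the trachea, and 11 of 13 were called lower. The 6 leukocyte markers summed to 8979 and 6126 CPM in AT2 and to 133 to 263 CPM in the trachea. Lyz2, which AT2 cells also express, made up nearly all of this in AT2 (8963 and 6110 CPM), and Ptprc, the pan-leukocyte gene CD45, was at no more than 1.19 CPM in any organoid.

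The BASC cultures did not form a single group. No difference in the 10 enzymes was detected between BASC and tracheal organoids (0 of 10 called, log2 differences −0.20 to 0.29, SE 0.12 to 0.22, none at an unadjusted p under 0.05, edgeR). Over all genes 0.0103% were called, 2603 of 19349 had an unadjusted p under 0.05 and DESeq2 called 734. Against AT2 organoids, again 0 of 10 were called and 0.0% of all genes, though 6333 genes had an unadjusted p under 0.05 and DESeq2 called 4477. Odc1 (0.78 ± 0.28), Amd1 (0.58 ± 0.22) and Gart (0.49 ± 0.18), all higher in BASC, had an unadjusted p under 0.05 there, and DESeq2 called 1 of the 10. The alveolar BASC culture was unlike the others. Without it 6 of the 10 were called against AT2, with Odc1, Amd1, Umps, Gart and Impdh2 higher in BASC and Sms lower, and 9036 genes were called in all. These comparisons share their AT2 and tracheal cultures and are not independent of each other.

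The alveolar and bronchiolar BASC cultures differed in several of the enzymes. Odc1 was at 112 CPM in the alveolar and 242 CPM in the bronchiolar culture, Amd1 at 74.8 and 137 CPM, and Gart at 34.3 and 56.3 CPM. Sms was at 70.7 and 50.3 CPM and Paics at 179 and 151 CPM, higher in the alveolar culture. Cad in the alveolar culture (23.7 CPM) was below both AT2 cultures. In the bronchiolar culture, Odc1 and Amd1 were above all 4 tracheal cultures and Paics was within the range of AT2. These are single cultures of the same sorted population, separated by hand by their morphology.
A grouping by the label alone was added after these values were seen, with AT2 and alveolar BASC cultures (n = 3) against tracheal and bronchiolar BASC cultures (n = 5). Because these same values prompted it and mixed BASCs are left out, the fit is a description with no test. In it 8 of the 10 enzymes passed the threshold, where 55.9% of 18362 genes did, and nothing is read from that count. Lower in the alveolar cultures were Odc1 (−0.83 ± 0.12), Gart (−0.59 ± 0.08), Umps (−0.57), Amd1 (−0.53) and Impdh2 (−0.45). Higher were Sms (0.79 ± 0.14), Paics (0.43) and Ppat (0.37). Srm (−0.08 ± 0.10) and Cad (−0.15 ± 0.14) had the smallest differences.

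**Figure D3:**
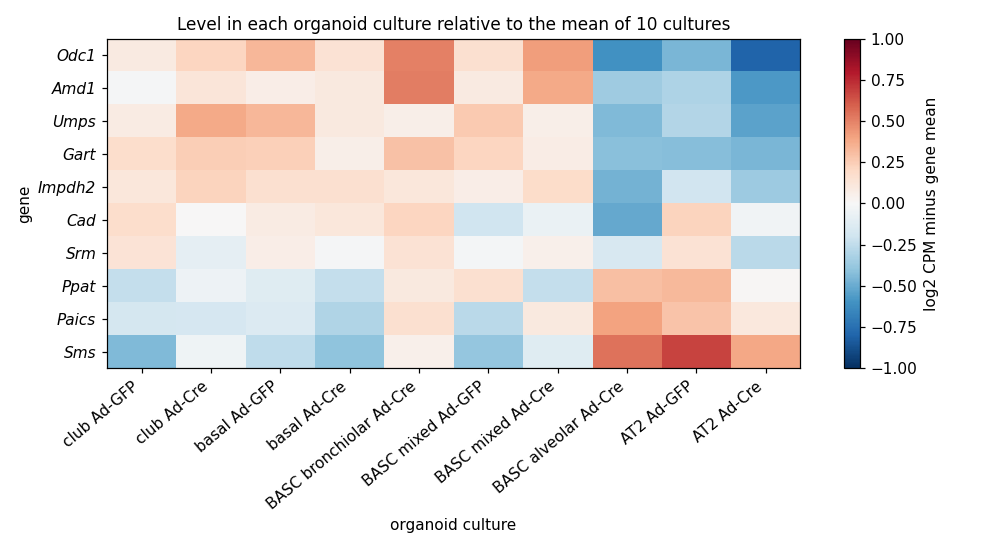
Level of each gene (rows) in each organoid culture (columns) as log2 CPM minus the mean of that gene over the 10 cultures, from blue (lower) to red (higher). In the alveolar BASC and both AT2 cultures at the right, Odc1, Amd1, Umps, Gart and Impdh2 are below their means and Sms and Paics above, while Srm varies little, from 14.4 to 19.2 CPM.

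Across the 10 organoids the levels of Odc1 and Amd1 (log2 CPM) correlated with r = 0.96, Odc1 and Gart with r = 0.94 and Umps and Gart with r = 0.93. These are descriptions over cultures that fall into alveolar and airway sets, which the correlations largely restate.

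Within the transplanted tumoroids, AT2 and mixed BASC origin gave no detectable difference in the 10 enzymes. The log2 differences (AT2 minus mixed BASC, n = 3 each) ran from −0.11 to 0.43 with SEs of 0.19 to 0.40, larger than the SEs of 0.08 to 0.14 in the grouping of organoids by label. None was called and none had an unadjusted p under 0.05 (edgeR), where 0.0% of 15470 genes were called, 135 had an unadjusted p under 0.05 and DESeq2 called 7. The spread inside each origin was wide. Sms was at 75.7, 35.96 and 52.7 CPM in the AT2 tumoroids and at 42.7, 48.7 and 31.8 CPM in the mixed BASC tumoroids, and Amd1 ran from 64.7 to 144 CPM and from 66.9 to 148 CPM. The AT2 tumoroids carry an NGFR-negative sort in their labels and were grouped by their stated origin. Some tumoroids share a number in their labels and may come from the same mouse, in which case p-values are too small.

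The difference between the transplant change in AT2 cells and that in mixed BASCs was fitted directly. The 10 interaction terms ran from −0.15 to 1.31 (log2) with SEs of 0.40 to 0.83. None was called or had an unadjusted p under 0.05, where 0.0% of 16139 genes were called, 937 had an unadjusted p under 0.05 and DESeq2 called 292. Each lineage had 1 organoid culture here, assumed to vary like the tumoroids.

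The bronchiolar BASC tumoroid had airway markers, with 6994 CPM summed over 9 genes against 63.0 to 1271 CPM in the other 6 tumoroids from transplants. Of these 7 it had the lowest Cad (47.3 CPM, the others 81.8 to 170), the lowest Ppat (27.1 CPM, the others 32.3 to 88.5) and the lowest Paics (245 CPM, the others 265 to 364). Its Srm (39.4 CPM) was in the range of the others, and its Odc1 was the highest, at 187 CPM against 77.3 to 177. As the only tumoroid of its kind it cannot be tested.

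No difference in the 10 enzymes was detected between Ad-Cre and Ad-GFP organoids, before any transplant. In the 4 populations with both viruses, with population as a block, 0 of 10 were called and the log2 differences ran from −0.17 to 0.04 with SEs of 0.07 to 0.13. Over all 17749 genes 0.0% were called by edgeR, 334 had an unadjusted p under 0.05 and DESeq2 called 5. Srm, for example, was at 19.2 CPM with Ad-GFP and 14.4 CPM with Ad-Cre in AT2 cultures, and at 17.1 and 17.9 CPM in mixed BASC cultures. Cad was at 39.4 and 33.0 CPM in AT2 and at 29.4 and 32.3 CPM in mixed BASC cultures. Neither gene was higher with Ad-Cre in all 4 populations.

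Beyond the 10, 74 further genes of these pathways were listed and 69 were tested between tumoroids from transplants and distal Ad-Cre organoids. Of these, 18 rose, where 10.8% of all genes did, and 2 fell, where 8.57% did. Their median log2 difference was 0.35 beside −0.0016 over all genes. This is the contrast that chose the 10 genes, and the lists were drawn up with earlier results of these data known. Platform and transplantation cannot be told apart in it, so the counts are no independent support for a rise of the pathways. By group, 6 of 8 deoxynucleotide genes rose and 1 fell, as did 4 and 1 of 21 other polyamine genes. Among the rest, 4 of 14 salvage genes, 3 of 11 other purine genes and 1 of 6 other pyrimidine genes rose, and 0 of 9 breakdown genes passed (4 had an unadjusted p under 0.05). With population as a block 9 of the 69 were called, where 1113 of all 16139 genes were.

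The deoxynucleotide genes included the largest rises of the listed pathway genes. Rrm2, the S-phase subunit of ribonucleotide reductase, was at 14.7 to 21.5 CPM in the 4 organoids and at 38.6 to 112 CPM in the tumoroids (1.96 ± 0.26, adjusted p = 0.00125). Tyms, which makes thymidylate, was at 9.22 to 13.0 and at 25.2 to 50.7 CPM (1.87 ± 0.20, adjusted p = 0.000503). Rrm2b, the alternative p53-regulated subunit, fell from 29.5 to 36.98 CPM in organoids to 13.5 to 19.8 CPM in tumoroids (−0.83 ± 0.13, adjusted p = 0.00242).
Tk1, the thymidine kinase of the salvage route, also rose (1.32 ± 0.28, adjusted p = 0.00925). With population as a block Tk1 did not pass (1.25, adjusted p = 0.0675, edgeR). Of the polyamine genes, Mat2a, which makes S-adenosylmethionine, fell from 96.7 to 137 CPM in organoids to 53.1 to 75.5 CPM in tumoroids (−0.81 ± 0.13, adjusted p = 0.00312).

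**Figure D4:**
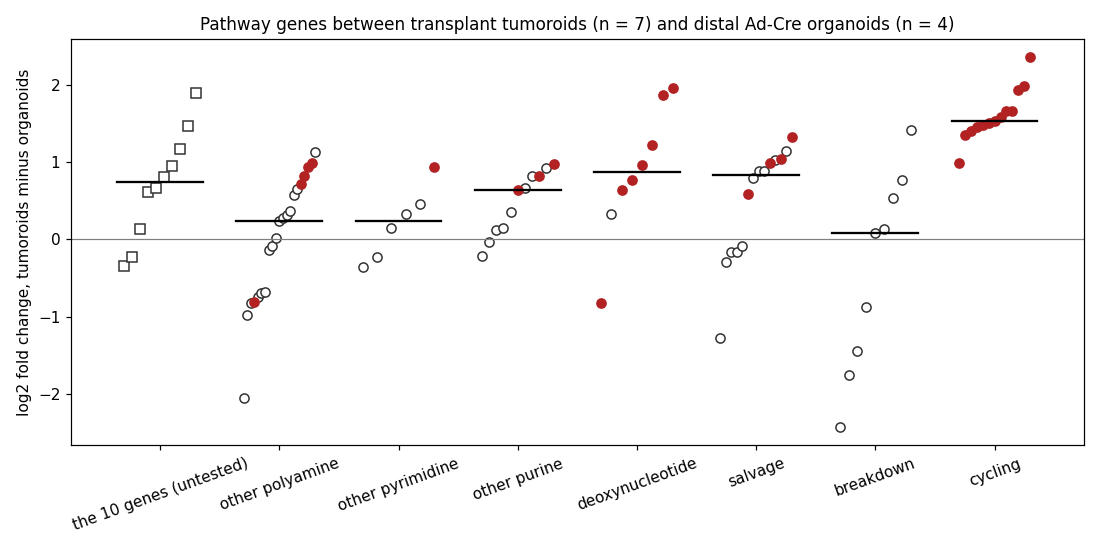
Fitted log2 fold change (y axis, 7 tumoroids from transplants against 4 distal Ad-Cre organoids) of every tested gene by list, with red points for adjusted p below 0.05, squares for the 10 genes, which are not tested there, and bars for medians. All 13 cycling genes and 6 of 8 deoxynucleotide genes rose, while no breakdown gene passed.

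Between AT2 and tracheal organoids, 15 of 71 tested pathway genes were higher in AT2, where 21.8% of all genes were, and 15 were lower, where 20.7% were, so the pathways as a whole were near the background. The arginase genes, which make the ornithine used by Odc1, differed in opposite directions. Arg2 was at 113 and 49.7 CPM in AT2 and at 2.599 to 3.65 CPM in the trachea (4.78 ± 0.99, adjusted p = 0.013), and Arg1 was at 70.3 and 51.1 CPM in AT2 and at 590 to 1046 CPM in the trachea (−3.83 ± 1.18, adjusted p = 0.034). Eif5a2, a second eIF5A gene (3.26 ± 0.78), and Adssl1, an adenylosuccinate synthetase (3.24 ± 0.76), were also higher in AT2. Dpyd, which breaks down pyrimidines (−4.28 ± 1.00), and Dctd, a deoxycytidylate deaminase (−1.85 ± 0.57), were lower. Adjusted p for these 4 ran from 0.0162 to 0.0335. Dhodh did not pass (0.14 ± 0.18). As for the enzymes, none of these pathway genes was called when the AT2 Ad-GFP culture was left out.

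Among the distal Ad-Cre organoids, the MYC genes themselves varied more than the enzymes. Myc was at 14.6 to 85.7 CPM in the distal Ad-Cre organoids and at 51.5 to 136 CPM in the 7 tumoroids, lowest in the AT2 and alveolar BASC organoids (14.6 to 17.9 CPM). Mycn was at 2.18 to 7.84 CPM in those organoids and at 1.37 to 41.04 CPM in the tumoroids, and Mycl at 7.59 to 51.7 and 6.48 to 45.9 CPM. None of the 3 was called between tumoroids and organoids (edgeR, adjusted p = 0.219, 0.235 and 0.653). Their log2 differences had wide SEs, at 0.93 ± 0.50 (Myc), 1.62 ± 0.90 (Mycn) and −0.47 ± 0.65 (Mycl). A change of Myc or Mycn as large as those of several enzymes could thus have been missed.

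Of 10402 further genes with a mean of at least 10 CPM, those whose log2 CPM over the 18 cultures most resembled the mean standardised level of the 10 enzymes were Fbl (r = 0.96), Apex1 (r = 0.95), Eif3l (r = 0.95), Rangap1 (r = 0.95) and Mdh2 (r = 0.95). The 18 points mix stage, platform and lineage, and the correlations are given as descriptions.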

How the data were processed

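The members and the gene lists were chosen with earlier results of these data known. Per the submitters' processing notes and the methods, the authors used Trimmomatic 0.39, STAR 2.6.1d and RSEM 1.3.2 with GRCm38, and deposited for each sample and gene RSEM's expected count, not normalized between samples, and TPM scaled by transcript length. Whether strand was used in counting is not given in the sources used here. Genes were matched by identifier to GENCODE vM21 (46005 of 46603).

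Expected counts were rounded and fitted in R 4.3.3 with edgeR 4.0.16 (filterByExpr, TMM, robust quasi-likelihood test), with Benjamini-Hochberg adjustment over all genes tested and a threshold of 0.05. All adjusted p-values come from this test. CPM used 1 set of TMM factors over the 18 samples. The fits were checked on simulated counts. Groups came from the labels. Every culture gave 1 library, so populations stand in for organoid replicates and p-values measure only the spread between these samples. Besides the 10 genes, the text names Dhodh, the MYC genes, the 3 largest called changes in each direction among pathway genes with a mean log2 CPM of 3 or more, and the 5 most similar genes. The alternatives were DESeq2 1.42.0, other scaling factors, no filter, each sample left out, other covariates and sample sets, and TPM with a pseudocount of 1. The human EGFR transgene and Pnp were not analysed here. Promoter windows came from RefSeq.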

Additional observations from a re-analysis of the deposited data

Results flagged for a closer look

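Of 40 sets of values (10 genes in each of 4 groups of 4 to 7 cultures), 1 held a culture far from the rest by Dixon's 95% limit, where chance gives about 1 in 20. Gart in mixed BASC tumoroid 2 was at 49.4 CPM, while the other 6 tumoroids from transplants were at 62.1 to 70.8 CPM.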

How the results depend on the processing

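Between tumoroids from transplants and distal Ad-Cre organoids, the contrast that chose the enzymes, counts of enzymes past the threshold are given as descriptions. With population as a block 1113 genes, 2 of the 10 enzymes and 9 of the other pathway genes were called, and leaving out 1 culture gave 1932 (without the bronchiolar BASC organoid culture) to 3658 genes, 3 to 7 enzymes (3 without the AT2 Ad-Cre organoid culture) and 17 to 24 pathway genes. With 1 culture left out, Amd1 ran from −0.024 (without the AT2 Ad-Cre organoid culture) to 0.31. Between AT2 and tracheal organoids, 2 enzymes were called with no filter and 8 in the grouping by label added after seeing the data, and leaving out 1 culture gave 0 to 10706 genes, 0 to 8 enzymes (8 without alveolar BASC) and 0 to 46 pathway genes. Near-zero differences changed sign there for Srm (−0.22 to 0.13 with 1 culture left out), Cad (−0.0897 to 0.17 with 1 left out, −0.14 by library totals, −0.15 in the grouping by label) and Dhodh (−0.0298 by library totals). Between BASC and AT2 organoids, DESeq2 called 4477 genes and 1 enzyme, and leaving out 1 culture gave 0 to 9036 genes and 0 to 6 enzymes (the highest without alveolar BASC). Sign changes there were Srm (−0.11 to 0.24 with 1 left out), Ppat (−0.24 to 0.0626 with 1 left out, 0.0291 by library totals) and Paics (−0.32 to 0.0525 with 1 left out). Between BASC and tracheal organoids, DESeq2's size factors gave 0 genes, the DESeq2 test 734, and leaving out 1 culture 0 to 561 (561 without the mixed BASC Ad-GFP culture and 62 without alveolar BASC). DESeq2 called 7 genes between AT2 and mixed BASC tumoroids, 5 between viruses and 292 for the interaction, with none of the 10 enzymes. The cause of these changes was not tested. A paired analysis used the sorted population, as given above, because replicate numbers here only name cultures.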
